A study of Mus musculus with 8 samples.

Results

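The complement system is a set of plasma and cell-bound proteins that tag debris and microbes for removal, attract leukocytes and can open membranes. It is started by the classical pathway, whose recognition molecule C1q binds antibody or damaged surfaces, by the lectin pathway, and by the alternative pathway, which properdin stabilizes. All routes meet at C3, whose cleavage gives the opsonin C3b and the peptide C3a, and then at C5, which gives the chemoattractant C5a. Macrophages and microglia are a major source of C1q in nervous tissue, and neutrophils and macrophages carry the receptors of C3a and C5a.

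The RNA of 7 complement genes was described in myeloid cells of the mouse sciatic nerve, out of 30406 genes shared by the matrices. These members, given by symbol, are C1qa, C1qb and C1qc (the chains of C1q), C3, C3ar1 and C5ar1 (the receptors of C3a and C5a) and Cfp (properdin). All 7 were found, and all 7 passed the filter on low counts in the summed samples.

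Male and female C57BL/6JolaHsd mice, with no genetic change given, had partial sciatic nerve ligation (PSNL, a tight suture around part of the nerve), a sciatic nerve crush with forceps, or sham surgery in which the nerve was exposed but not injured. CD45+/CD11b+ cells, so leukocytes of the myeloid lineage, were sorted from perfused animals, labelled with 1 hashtag antibody per sample and read as droplet single-cell RNA. By the study's methods the sort left out neutrophils by their surface Ly6G at the early time, so the cells with neutrophil markers described here are those that remained after it, and their numbers do not give the share of neutrophils in the nerve. The groups were sham (n = 2), PSNL (n = 2) and crush (n = 2) at 1 week, each with 1 female and 1 male sample, and PSNL (n = 4) and crush (n = 3) at 15 weeks, so 13 samples in 4 libraries. The PSNL library at 1 week also held the sham female and the crush library the sham male, and no sham group at 15 weeks was analysed here. Neither the labels nor the methods tell if a hashtag is a single mouse or a pool, so p-values measure the spread between these samples, which may be technical.

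In all, 6551 cells passed the filters with 1 hashtag, from 64 and 105 cells in the sham samples to 1556 cells in the crush male at 15 weeks, with 247765 to 15294306 unique molecular identifiers (UMIs, counts of single RNA molecules) per sample. The libraries shared 1 to 3 cell barcodes pairwise. Xist was at most 1.69 CPM (counts scaled to the same total in each sample) in every male sample and at least 774 CPM in every female sample. CD45 (Ptprc, 567 to 1023 CPM) and CD11b (Itgam, 121 to 640 CPM) were present in all samples, and the 7 lymphoid markers summed to at most 20.7 CPM. Gm42418, a gene on which ribosomal RNA reads can pile up, took 7.18 to 18.4% of the UMIs at 1 week and 1.33 to 2.36% at 15 weeks. The summed level of 7 neutrophil markers was 5963 and 16583 CPM in the PSNL samples at 1 week, at most 3330 CPM in sham, at most 2205 CPM in crush at 1 week and at most 376 CPM at 15 weeks.

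C1qa, C1qb and C1qc lie next to each other on chromosome 4 of GRCm38, within 18675 bases (chr4:136880129-136898803), all on the minus strand. Single members lie on chromosome 17 (C3, chr17:57203970-57228136), chromosome 6 (C3ar1, chr6:122847138-122856161), chromosome 7 (C5ar1, chr7:16246743-16259540) and chromosome X (Cfp, chrX:20925454-20931555), also on the minus strand. The promoters of C1qb and C1qc, from 250 bases before to 50 bases after the RefSeq start (GRCm38.p6, chr4:136886151-136886450 and chr4:136892865-136893164), are shown because the levels of these neighbours followed each other over the samples. Capitals mark GAGGAA, the core that the myeloid factor PU.1 prefers, or its reverse complement.

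C1qb: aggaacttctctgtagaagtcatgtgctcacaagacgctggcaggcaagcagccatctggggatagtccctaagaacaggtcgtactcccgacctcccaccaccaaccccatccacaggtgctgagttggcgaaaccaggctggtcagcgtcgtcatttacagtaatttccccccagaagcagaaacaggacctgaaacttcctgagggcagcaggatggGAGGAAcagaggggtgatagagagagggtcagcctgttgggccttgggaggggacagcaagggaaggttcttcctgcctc

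C1qc: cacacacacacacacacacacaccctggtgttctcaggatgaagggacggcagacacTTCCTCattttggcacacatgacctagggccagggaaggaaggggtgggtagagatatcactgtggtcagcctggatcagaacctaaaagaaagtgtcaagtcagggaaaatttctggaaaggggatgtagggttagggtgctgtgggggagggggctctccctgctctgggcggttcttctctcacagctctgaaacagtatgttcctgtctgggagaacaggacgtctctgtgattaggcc

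GAGGAA was found on either strand in 3 of the 6 members with an entry (1 match each in C1qb and C1qc, 2 matches in Cfp), and 28.3% of all 32851 promoters hold it. The composite element of ETS and IRF factors (2.72% of all promoters) was in none of the 6 windows, and a match of letters is no evidence of binding.

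The C1q genes formed a block that was low in PSNL at 1 week and high in both injuries at 15 weeks. C1qa, the A chain, was at 1855 CPM in female sham and 1309 CPM in male sham, at 873 and 703 CPM in the PSNL female and male, and at 965 and 1768 CPM in the crush female and male at 1 week. At 15 weeks C1qa was at 2825, 2506, 2775 and 3493 CPM in PSNL F1, F2, M1 and M2, and at 2362, 3108 and 3891 CPM in the crush samples F1, F2 and M1. All 7 samples at 15 weeks were therefore above all 6 samples at 1 week, and both PSNL samples at 1 week were below every other sample. CPM values are scaled to TMM-normalized totals.

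C1qb, the B chain, ranged from 846 to 1868 CPM at 1 week and from 2090 to 4121 CPM at 15 weeks. C1qc, the C chain, ranged from 528 to 1382 CPM at 1 week and from 1501 to 2625 CPM at 15 weeks. For both, too, the 2 times did not overlap. How many of all genes had such a gap was not counted. In the tests given below, 56.3% of all genes in PSNL and 42.5% in crush were called between the times. Of the summed C1q UMIs, C1qa took 32.8 to 41.1%, C1qb 31.8 to 40.7% and C1qc 24.6 to 29.1% over the 13 samples, while their sum went from 0.17 to 1.06% of all UMIs. C1qb took more than C1qa in the 4 injured samples at 1 week and in the crush male M1 at 15 weeks (C1qb 37.9 to 40.7%, C1qa 32.8 to 36.6%), and less in the other 8 samples (C1qb 31.8 to 35.7%, C1qa 38.8 to 41.1%).

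**Figure D1:**
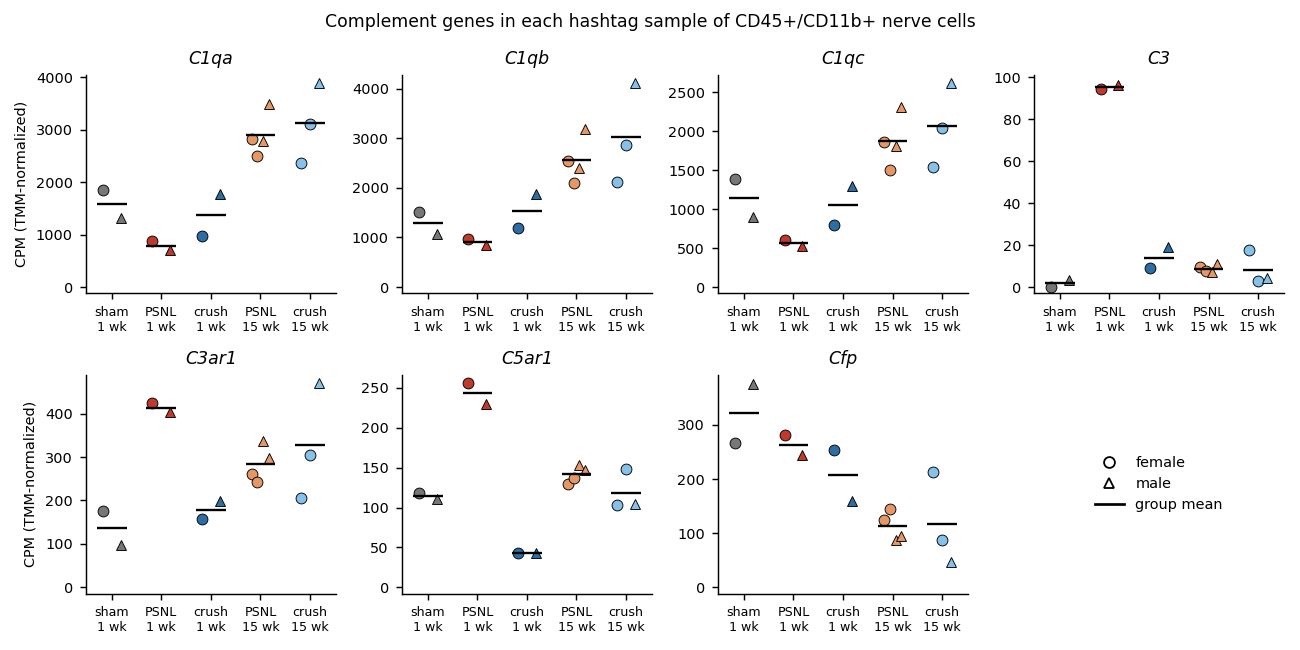
Level of each complement gene (y axis, CPM on TMM-normalized totals) in each hashtag sample, by group (x axis), with circles for female and triangles for male samples and lines for group means. The C1q genes are highest at 15 weeks, C3 is at 94.3 and 96.5 CPM in the PSNL samples at 1 week and at most 19 CPM in all others, and C5ar1 is lowest in crush at 1 week (43.1 and 43.4 CPM).

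C3, the component on which all pathways converge, was highest in PSNL at 1 week. Female sham had 0 CPM and male sham 3.51 CPM (2 UMIs in all). Female and male PSNL reached 94.3 and 96.5 CPM at 1 week, and female and male crush 8.87 and 19 CPM. At 15 weeks C3 was at 7.06 to 11.2 CPM in the 4 PSNL samples and at 17.8, 2.7 and 4.32 CPM in crush F1, F2 and M1. The PSNL samples at 1 week thus stood apart from the other 11 samples. How many of all genes set these samples apart was not counted.

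The receptor of C3a, encoded by C3ar1, was at 175 and 96.6 CPM in sham, at 424 and 404 CPM in PSNL and at 156 and 198 CPM in crush at 1 week (female, then male). At 15 weeks C3ar1 was at 262, 243, 337 and 298 CPM in PSNL (F1, F2, M1, M2) and at 205, 305 and 471 CPM in crush (F1, F2, M1). Both PSNL samples at 1 week were above every sample except the crush male at 15 weeks.

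C5ar1, the main signalling receptor of C5a, was at 118 and 111 CPM in sham, at 256 and 231 CPM in PSNL and at 43.4 and 43.1 CPM in crush at 1 week. The 15 week values of C5ar1 were 130, 137, 154 and 147 CPM in PSNL and 103, 148 and 104 CPM in crush. No group overlapped another at 1 week, with PSNL highest and crush lowest, whereas the groups overlapped at 15 weeks. How many of all genes kept the 1 week groups apart was not counted.

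Cfp, which encodes properdin, was at 267 and 376 CPM in sham, at 281 and 244 CPM in PSNL and at 254 and 160 CPM in crush at 1 week. The 15 week values of Cfp were 125, 145, 87.7 and 95.2 CPM in PSNL and 214, 87.6 and 47.4 CPM in crush. Only the crush female F1 reached the range of the 1 week samples at 15 weeks.

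In PSNL against sham at 1 week, the comparison that asks what a lasting partial ligation does to nerve myeloid cells, C3 and both anaphylatoxin receptors were higher and no member was called lower. By edgeR's quasi-likelihood test with Benjamini-Hochberg adjustment, 3 of 7 members passed an adjusted p of 0.05, all higher, against 5.26% of the 11483 genes tested in either direction and 3.26% called higher. C5ar1 was higher by 1.10 on the log2 scale (SE 0.20, adjusted p = 0.00977, 2 of 2 samples above both sham samples) and C3ar1 by 1.67 (SE 0.37, adjusted p = 0.0229). C3 had an adjusted p of 0.0213, and since sham held only 2 C3 UMIs against 598 in PSNL, the change is given as a ratio of 38.2 with a 95% counting interval from 10.5 to 316.

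C1qa (log2 change -1.0, SE 0.30, adjusted p = 0.0728) and C1qc (-1.01, SE 0.30, adjusted p = 0.072) did not pass, C1qb was at -0.50 (adjusted p = 0.397) and Cfp at -0.31 (adjusted p = 0.806). With the sham female alone, which shared the library of PSNL, no member passed (C5ar1 at 1.05 with an adjusted p of 0.0841, C3ar1 at 1.26 with 0.192, and C3, with 0 UMIs in that sham, with 0.151), and with the sham male alone only C3ar1 passed (2.11, adjusted p = 0.0484). With the hashtag calls of HTODemux in place of the thresholds used here, 0 of 7 passed (C5ar1 0.86, adjusted p = 0.102, C3ar1 1.37, adjusted p = 0.128). The C3 call was also lost without the PSNL female or male (adjusted p = 0.0515 and 0.0683), as was that of C3ar1 (0.0729 and 0.0822). The summed neutrophil markers, as given above, were higher in PSNL in spite of the sort against Ly6G, and the gate of these cells had the highest C5ar1 level. Without the cells of the neutrophil and eosinophil gates, the same 3 members passed, with C5ar1 at 1.10 (adjusted p = 0.0186), C3ar1 at 1.74 (adjusted p = 0.0182) and C3 at an adjusted p of 0.0234.

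In crush against sham at 1 week, the corresponding comparison for an injury from which the nerve can regrow, C5ar1 alone was called and it was lower. It fell by 1.39 on the log2 scale (SE 0.21, edgeR adjusted p = 0.0452, both crush samples below both sham samples), so 1 of 7 members passed against 0.174% of the genes tested (0.105% called lower). The C1q genes lay between -0.21 and 0.25 with SEs of 0.30 to 0.31, C3ar1 was at 0.45 (adjusted p = 0.703), Cfp at -0.66 (adjusted p = 0.701) and C3 at an adjusted p of 0.557. The call of C5ar1 was close to the threshold, and with the sham male of the same library alone the value was -1.34 (adjusted p = 0.153), and without the neutrophil and eosinophil gates -1.33 (adjusted p = 0.0544). It was also lost without the sham male, without the crush male, without either PSNL sample at 1 week and without any of the 4 PSNL samples at 15 weeks (adjusted p from 0.0595 to 0.343).

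PSNL and crush were also set against each other, which asks whether the kind of injury matters. At 1 week 3 of 7 members were higher in PSNL and none was called lower, against 12.4% of all genes tested in either direction and 6.67% called higher. C5ar1 was higher by 2.49 (SE 0.19, edgeR adjusted p = 4.03e-05), C3 by 2.73 (SE 0.59, adjusted p = 0.0121) and C3ar1 by 1.22 (SE 0.33, adjusted p = 0.0325), with PSNL above crush in 2 of 2 samples for each. The C3ar1 call was lost without any 1 of these 4 samples (adjusted p from 0.110 to 0.161), and the C3 call without the PSNL male (0.0675) or the crush female (0.0745). C1qa (-0.80, adjusted p = 0.104), C1qb (-0.75, adjusted p = 0.136) and C1qc (-0.89, adjusted p = 0.0713) leaned the other way without passing.

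Injury and library coincide in this comparison apart from the sham samples. With library as a term, which then rests on the difference between the 2 sham samples, no member passed: C5ar1 was at 2.30 (adjusted p = 0.0781), C3ar1 at 0.26 (adjusted p = 0.778) and C3 at an adjusted p of 0.357. Without the neutrophil and eosinophil gates the values were 2.43 for C5ar1 (adjusted p = 7.63e-05), 2.59 for C3 (adjusted p = 0.0165) and 1.29 for C3ar1 (adjusted p = 0.0242).

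At 15 weeks no member differed detectably between PSNL and crush, and neither did any other gene (0% of those tested, 549 genes at an unadjusted p under 0.05). The log2 differences and their intervals of 2 SE on each side were -0.11 for C1qa (-0.56 to 0.34), -0.25 for C1qb (-0.72 to 0.22), -0.15 for C1qc (-0.60 to 0.31), 0.08 for C3 (-0.90 to 1.07), -0.20 for C3ar1 (-0.70 to 0.29), 0.27 for C5ar1 (-0.01 to 0.54) and -0.03 for Cfp (-0.82 to 0.75). Differences within these bounds cannot be told from 0 at this number of samples.

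Between 1 and 15 weeks, the C1q genes rose in both injuries while C5ar1 moved in opposite directions. In PSNL, 6 of 7 members passed, 3 in each direction, against 56.3% of all genes tested (29.3% higher and 27% lower). C1qa rose by 1.88 (SE 0.28, edgeR adjusted p = 0.000126), C1qc by 1.73 and C1qb by 1.49, whereas C3 fell by 3.45 (SE 0.48, adjusted p = 6.72e-05), Cfp by 1.21 (SE 0.43, adjusted p = 0.0282) and C5ar1 by 0.77 (SE 0.15, adjusted p = 0.000794). C3ar1 did not pass (-0.54, adjusted p = 0.115). The Cfp call was lost without the PSNL female or male at 1 week (adjusted p = 0.125 and 0.0810) and without M1 or M2 at 15 weeks (0.0682 and 0.0604).

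In crush, 5 of 7 members rose, against 42.5% of all genes tested in either direction (24% higher). C5ar1 rose by 1.45 (SE 0.18, edgeR adjusted p = 5.2e-05), C1qa by 1.19 (SE 0.28, adjusted p = 0.0049), C1qb by 0.99 (SE 0.29, adjusted p = 0.0159), C1qc by 0.98 (SE 0.28, adjusted p = 0.0135) and C3ar1 by 0.88 (SE 0.31, adjusted p = 0.0347). C3 (-0.81, adjusted p = 0.276) and Cfp (-0.84, adjusted p = 0.162) did not pass. Without the crush female at 1 week, only C5ar1 passed and C1qa was at 0.82 (adjusted p = 0.0628). C3ar1 was also lost without the crush male at 1 week (adjusted p = 0.0770) and without F2 (0.0502) or M1 (0.54, adjusted p = 0.109) at 15 weeks, and with HTODemux (0.0551). Without F1 at 15 weeks, C3 (-1.89, adjusted p = 0.00166) and Cfp (-1.64, adjusted p = 0.00232) also passed.

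Time coincides with library, with the batch named in the labels and with the version of Cell Ranger in the matrix headers, and these cannot be told apart. Since so many genes were called between the times, the counts of members are given as a description. The change of the PSNL minus crush difference from 1 to 15 weeks, which tests whether the injuries converged, was called for C5ar1 (-2.22, SE 0.23, edgeR adjusted p = 0.000669), so for 1 of 7 members against 7.86% of all genes (4.4% lower). C3 (-2.64, adjusted p = 0.0525) and C3ar1 (-1.42, adjusted p = 0.054) missed the threshold. The C5ar1 call was kept in all 23 alternatives in which it was computed, with an adjusted p of at most 0.00929. Library as a term was not among them, since it was fitted on the 1 week samples only. With that term C5ar1 did not pass in PSNL against crush at 1 week, as given above, and injury and library coincide here too.

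**Figure D2:**
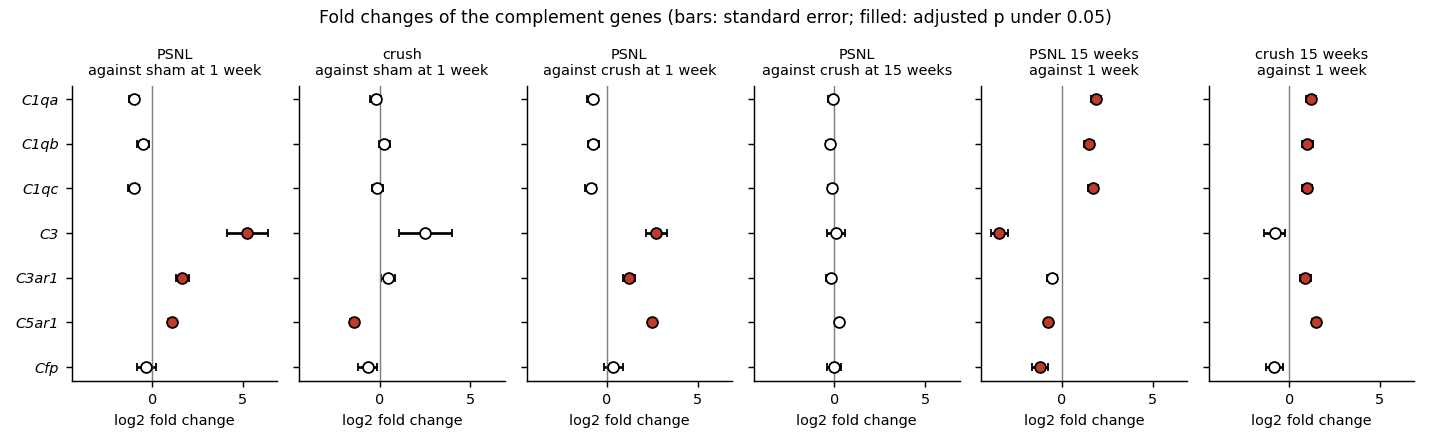
Log2 fold change (x axis) of each complement gene (rows) in 6 comparisons (panels) from the edgeR fit on sample sums, with bars for the standard error and filled points for an adjusted p under 0.05. C5ar1 is filled on the right for PSNL and on the left for crush against sham, and the C1q genes are filled only between the times.

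To see which cells carried these RNAs, cells were put into gates by lists of 7 markers each, none of them a complement gene. A cell entered a gate with at least 3 of the 7 markers and more than for any other list. This placed 4830 of the 6551 cells, of which 36.8% led the next list by only 1 marker, and 26.3% stayed ungated. Gate values are CPM of plain totals over the samples with at least 20 cells in that gate, and in the sums over all cells of a sample fewer cells of a type and less RNA per cell cannot be told apart.

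The gate of the list Spp1, Arg1, Lgals3, Fabp5, Gpnmb, Hmox1 and Il7r held different cells at the 2 times and, at 1 week, in the 2 injuries. Arg1 had a UMI in 72.1% of its cells in PSNL at 1 week, in 6.35% in crush at 1 week and in 1.94% (PSNL) and 1.04% (crush) at 15 weeks, whereas Gpnmb had one in 41.2%, 50%, 81.1% and 93%. It is therefore called the Spp1-list gate here. The resident gate (Cd163, Lyve1, Mrc1, Cbr2, F13a1, Folr2, Pf4) held 62.5 and 49.5% of the sham cells but 1.13 and 1.14% of the PSNL cells at 1 week, 6 and 10 cells, so it gave no sum of at least 20 cells for PSNL at 1 week.

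C1q RNA was high in the macrophage gates and in the ungated cells. The summed C1q level was 5890 to 9668 CPM over 10 resident gate sums, 8549 to 11757 CPM over 9 sums of the microglia-like gate (Cx3cr1, Tmem119, P2ry12 and others), and 1845 to 11989 CPM over 11 sums of the Spp1-list gate. It was 9.14 to 91.4 CPM in the dendritic gate, 43.8 to 464 CPM in the monocyte gate and 31.4 to 1879 CPM in the neutrophil gate. Over 11 sums of ungated cells it was 1621 to 10376 CPM, with a median of 6801 CPM. The resident and microglia-like sums overlapped, and no dendritic or monocyte sum reached any macrophage sum, whereas the highest neutrophil sum lay above the lowest Spp1-list sum.

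With the sample as a block, no C1q gene was called between the microglia-like and resident gates (C1qb 0.68, SE 0.28, edgeR adjusted p = 0.123) or between the Spp1-list and resident gates (C1qa -0.43, adjusted p = 0.317). For both comparisons, only the 15 week samples and the crush male at 1 week had at least 20 cells in both gates. In the dendritic gate all 7 members were lower than in the resident gate, against 42.8% of the 10190 genes tested (24.9% lower), with C1qa at -6.99 (SE 0.55, adjusted p = 6.34e-13). Of these calls, that of Cfp was lost without the crush female or male at 1 week (adjusted p = 0.0549 and 0.0939). In the monocyte gate 5 of 7 were lower (14.5% of genes, 7.24% lower), with C1qa at -4.84 (SE 0.78, adjusted p = 2.66e-05). Only the crush male at 1 week had at least 20 cells in both the monocyte (57) and the resident gate (23). The PSNL sums of the monocyte gate were thus linked to resident sums only through other gates. The single eosinophil gate sum held 25 cells with 2 C1q UMIs, and 3 of 7 members, the C1q genes, were called lower there (4.08% of genes, 2.46% lower), where this lone sum is assumed to vary like those of the other gates.

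**Figure D3:**
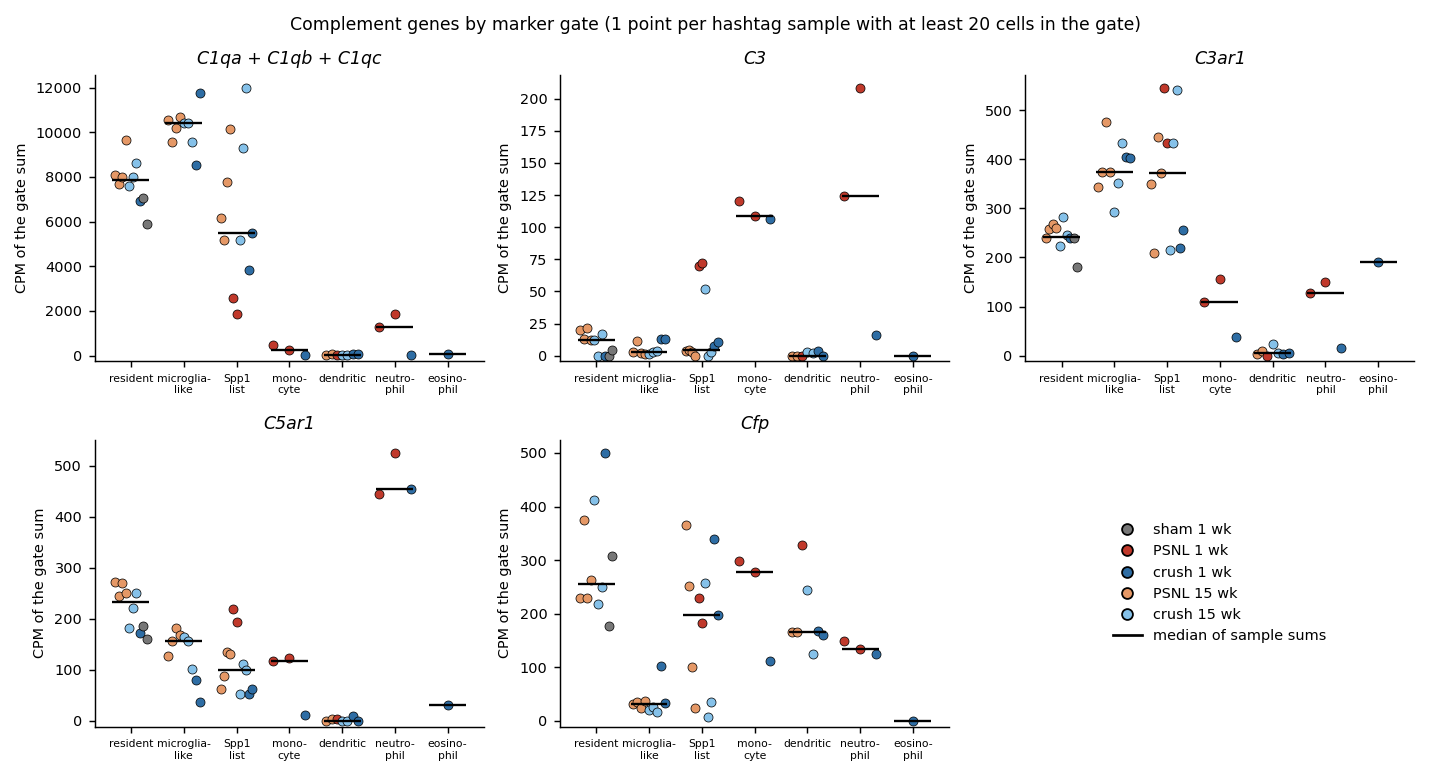
Level of C1q (sum of 3 chains), C3, C3ar1, C5ar1 and Cfp (y axis, CPM of the gate sum) by marker gate (x axis), with 1 point per hashtag sample that has at least 20 cells in the gate, coloured by group, and lines for medians. C1q and C3ar1 are high in the macrophage gates, C3 is highest in monocyte and neutrophil sums, C5ar1 is highest in the 3 neutrophil sums (445 to 524 CPM) and Cfp has a lower median in the microglia-like gate (32.3 CPM) than in the resident gate (256 CPM). All monocyte and neutrophil sums are from 1 week, and the resident gate has no sum for PSNL at 1 week.

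In the neutrophil gate 5 of 7 members were lower than in the resident gate (31.7% of genes, 20% lower), the C1q genes among them (C1qa -2.11, SE 0.72, edgeR adjusted p = 0.0241). Here too, only the crush male at 1 week had at least 20 cells in both gates (29 and 23). The 2 PSNL sums of that gate differed from the crush sum: C1qa was at 473 and 739 CPM in the PSNL female and male and had 0 UMIs in the 29 neutrophil gate cells of the crush male. Whether the C1q RNA of the PSNL sums came from the gated cells themselves was not tested. Without the crush male, C1qa in the neutrophil gate was at -0.03 (adjusted p = 0.994) and no member passed. Without the PSNL female at 1 week 1 member passed, and without M1 of PSNL or F1 of crush at 15 weeks 3 passed.

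C5ar1 had its highest level in the neutrophil gate. The 3 neutrophil gate sums were at 445 and 524 CPM in PSNL and 455 CPM in crush at 1 week, above all 10 resident gate sums (160 to 272 CPM), though the difference of 0.59 on the log2 scale (SE 0.37, edgeR adjusted p = 0.218) did not pass. C5ar1 was lower than in the resident gate in the Spp1-list gate (-1.15, SE 0.20, adjusted p = 2.91e-05), the microglia-like gate (-0.71, SE 0.20, adjusted p = 0.0108, and 0.0555 with DESeq2) and the monocyte gate (-2.02, adjusted p = 0.000384). With these, 3 of 7 members passed in the Spp1-list gate, against 35% of genes (16.6% higher, 18.4% lower), and 3 of 7 in the microglia-like gate, against 13% (6.58% higher, 6.38% lower).

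C3ar1 was higher in the microglia-like gate than in the resident gate, and its call in the Spp1-list gate depended on single samples. It was at 210 to 545 CPM in the Spp1-list gate and 292 to 476 CPM in the microglia-like gate, against 180 to 283 CPM in the resident gate. It was higher than in the resident gate by 0.73 (SE 0.18, edgeR adjusted p = 0.00384) in the microglia-like gate and by 0.52 (SE 0.18, adjusted p = 0.0219) in the Spp1-list gate. The latter call was lost without M1 of PSNL (0.50, adjusted p = 0.0622) or M1 of crush (0.40, adjusted p = 0.106) at 15 weeks and with DESeq2 (0.44, adjusted p = 0.0945). It was at -5.05 on the log2 scale against the resident gate in the dendritic gate (SE 0.33), where it was at most 24.5 CPM.

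Cfp had another order. The resident gate was at 177 to 499 CPM and the monocyte gate at 113 to 299 CPM, the dendritic gate at 124 to 329 CPM and the neutrophil gate at 125 to 150 CPM. The microglia-like gate, at 17 to 102 CPM, was lower than the resident gate (log2 difference -3.30, SE 0.32, edgeR adjusted p = 1.2e-09), with no overlap between their sums. How many of all genes had no overlap between these gates was not counted. In the Spp1-list gate Cfp was lower (log2 difference -1.20, SE 0.28, adjusted p = 0.000848), though its sums spread from 6.97 to 366 CPM and overlapped those of the resident gate.

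C3 had its highest levels in the monocyte and neutrophil gates, whose sums all came from 1 week. The monocyte gate sums were at 120 and 109 CPM in PSNL and 106 CPM in crush at 1 week, so this gate held C3 in both injuries. The neutrophil gate sums were at 125 and 208 CPM in PSNL and 15.7 CPM (1 UMI) in crush. The resident gate had at most 21.2 CPM, with 0 CPM in the crush male at 1 week and no sum for PSNL at 1 week. In PSNL at 1 week C3 was also at 69.5 and 72.2 CPM in the Spp1-list gate and at 68.9 and 70.9 CPM in ungated cells. Between gates, C3 was called only for the dendritic gate (-4.10, SE 1.02, edgeR adjusted p = 0.00132). Without the crush female F1 at 15 weeks C3 was also called lower in the Spp1-list gate (-1.57, adjusted p = 0.0235).

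By source, C3 UMIs of PSNL at 1 week came to 49.7% from the Spp1-list gate, 18.9% from the neutrophil gate and 15.4% from the monocyte gate. These gates held 43.5%, 19.2% and 10.7% of the cells, but their depth differed. Over all groups the median was 8917 UMIs per cell in the Spp1-list, 1927.5 in the neutrophil and 5153 in the monocyte gate. Per UMI, C3 in PSNL at 1 week was at 69.5 and 72.2 CPM in the Spp1-list gate. It was at 125 and 208 CPM in the neutrophil and 109 and 120 CPM in the monocyte gate. In crush at 1 week 47.5% of the C3 UMIs came from the monocyte gate, with 7.68% of the cells. That share rests on 18 C3 UMIs in the crush female and 62 in the male, with 15 and 57 monocyte gate cells. In sham, 81% of the C1q UMIs and 71.1% of the C5ar1 UMIs came from the resident gate. In PSNL at 1 week 56% of the C5ar1 UMIs came from the Spp1-list gate and 22.5% from the neutrophil gate. These are shares of the sorted cells, from which Ly6G+ cells had been left out at 1 week.

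**Figure D4:**
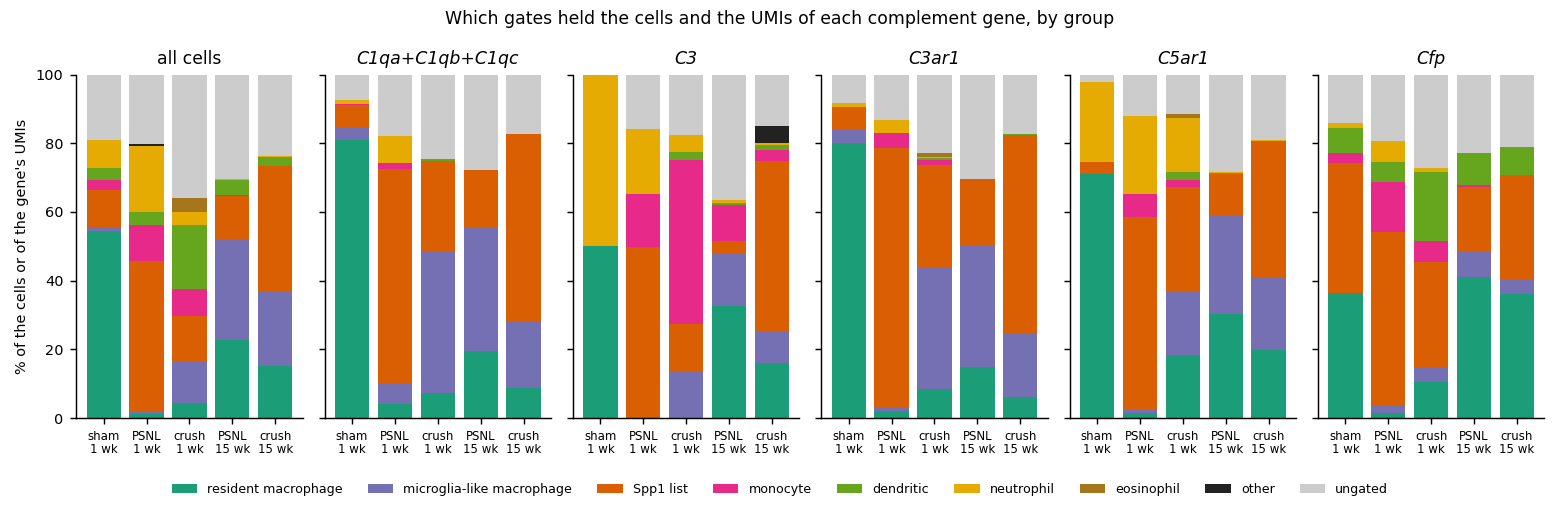
Share of the cells (first panel) and of the UMIs of C1q, C3, C3ar1, C5ar1 and Cfp (y axis, %) in each marker gate (colours), pooled over the samples of each group (x axis). The resident gate leads in sham for C1q (81%) and the Spp1-list gate in PSNL at 1 week (62.4%). The monocyte gate holds 47.5% of the C3 UMIs in crush at 1 week (18 C3 UMIs in the female and 62 in the male sample).

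Within the Spp1-list gate, a gate chosen for this after its cell numbers were seen, C3, C3ar1 and C5ar1 had the same order of the injuries at 1 week as in the whole samples. The markers of this gate also differed between the injuries at 1 week, as given above. Other kinds of cell and other levels in like cells therefore cannot be told apart. C5ar1 was at 218 and 194 CPM in the PSNL female and male and at 51.8 and 62.6 CPM in the crush female and male, higher in PSNL by 1.90 (SE 0.40, edgeR adjusted p = 0.0353), and 1 of 7 members passed against 1.77% of 8408 genes (1.02% higher). C3 was at 69.5 and 72.2 CPM in PSNL and at 7.14 and 10.7 CPM in crush (log2 difference 3.02, SE 1.15, adjusted p = 0.239). C3ar1 was at 545 and 433 CPM in PSNL and at 220 and 257 CPM in crush (1.09, SE 0.42, adjusted p = 0.242). Cfp, at 0.35 (adjusted p = 0.721) in the whole samples, was at -0.33 here (adjusted p = 0.939), with 229 and 182 CPM in PSNL and 339 and 197 CPM in crush. C3, C3ar1 and C5ar1 did not overlap between the injuries, and neither did C1qa, C1qb and C1qc, which were lower in PSNL. The log2 differences of these C1q genes were -0.80, -1.13 and -1.11 (edgeR adjusted p = 0.401, 0.220 and 0.242). How many of all genes did not overlap was not counted. C5ar1 lost its call without any of the 4 samples (adjusted p from 0.135 to 0.206) and without the PSNL male M1 at 15 weeks (adjusted p = 0.0539).

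The C1q level of the Spp1-list gate was 2591 and 1845 CPM in PSNL and 3851 and 5479 CPM in crush at 1 week. At 15 weeks it was 6182, 5177, 7788 and 10164 CPM in PSNL and 5169, 9319 and 11989 CPM in crush. In PSNL the times did not overlap, and C1qa rose by 1.54 (SE 0.38, edgeR adjusted p = 0.00807), C1qc by 1.48 and C1qb by 1.36, while C3 fell by 5.20 (SE 1.13, adjusted p = 0.00386) and C5ar1 by 1.22 (SE 0.32, adjusted p = 0.0104), so 5 of 7 members passed against 33.9% of genes (20.2% higher, 13.7% lower). Without the PSNL female or male at 1 week, C5ar1 was at -1.20 and -1.31 and no longer passed. At 15 weeks C3 in this gate was at most 4.51 CPM in PSNL and at 52, 0 and 2.59 CPM in crush F1, F2 and M1. In crush none of 7 passed (16.5% of genes), with C1qa at 1.09 (SE 0.39, adjusted p = 0.0732).

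Thinned to 2000 UMIs per cell, 22.1% of the 561 Spp1-list cells deep enough in PSNL at 1 week had all 3 C1q chains, against 51.6% of 122 in crush at 1 week, 82.8% of 204 in PSNL and 91.4% of 856 in crush at 15 weeks (unthinned 34.3, 61.1, 87.9 and 94.6%). Of the 862 Spp1-list cells of crush at 15 weeks, 746 came from the sample M1. In the dendritic gate, whose median depth was 7991 UMIs per cell against 8917 in the Spp1-list gate, all 3 chains were found in 0 of 49, 1 of 170, 2 of 70 and 0 of 63 thinned cells of the same groups, so in at most 2.86%. C3 had a UMI in 11.9% of the thinned Spp1-list cells of PSNL at 1 week (Wilson 95% interval 9.52 to 14.9%), in 4.1% in crush at 1 week (1.76 to 9.24%) and in 0.49% in PSNL at 15 weeks (0.09 to 2.72%), with unthinned shares of 29.4, 7.94 and 1.94%. In the dendritic gate C3 had a UMI in 0 of 49, 0 of 170 and 1 of 70 thinned cells of these groups, so the PSNL share at 15 weeks did not exceed that of the dendritic cells. These intervals cover counting error only.

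**Figure D5:**
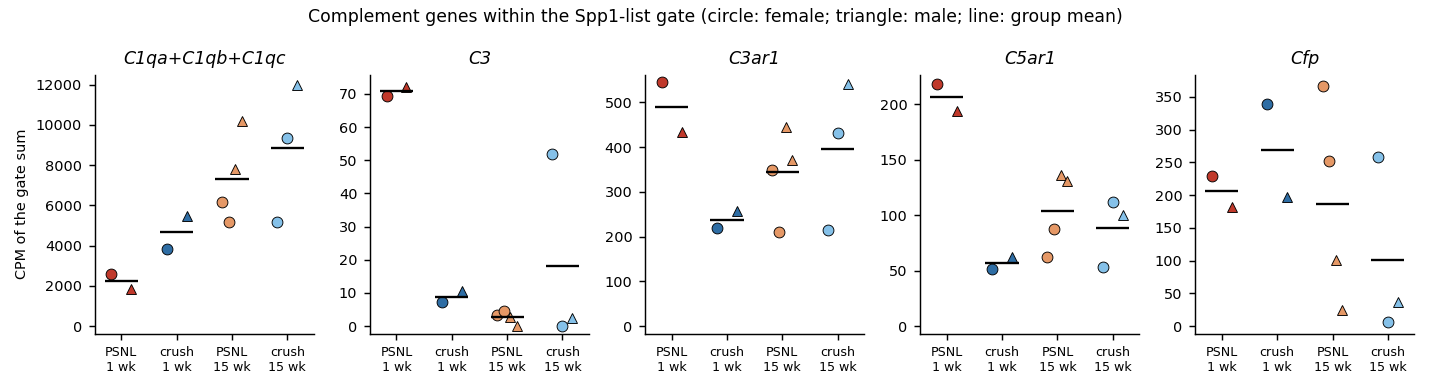
Level of C1q (sum of 3 chains), C3, C3ar1, C5ar1 and Cfp (y axis, CPM of the gate sum) within the Spp1-list gate, by group (x axis), with circles for female and triangles for male samples and lines for group means. C3 and C5ar1 are highest in PSNL at 1 week, and C1q is higher at 15 weeks than in PSNL at 1 week.

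In the resident gate no member was called with the settings used here. The C1q level was 7070 and 5890 CPM in sham, 6941 CPM in the crush male at 1 week (the crush female had 19 cells there and was left out), 7703 to 9668 CPM in PSNL and 7600 to 8629 CPM in crush at 15 weeks. No member passed in crush against sham at 1 week (0.0226% of 8833 genes, 747 at an unadjusted p under 0.05), with C5ar1 at -0.10 (interval -0.78 to 0.57), where the lone crush sample is assumed to vary like the other groups. None passed in PSNL against crush at 15 weeks (0% of genes, 314 at an unadjusted p under 0.05), with C1qa at 0.04 (interval -0.20 to 0.27), and none passed in crush between the times (7.7% of genes, Cfp -0.88, adjusted p = 0.184). Alternatives gave some calls between the times. Without F1 at 15 weeks, Cfp passed in crush (-1.24, adjusted p = 0.0332). With cells assigned where the highest hashtag count was at least 3 times the second, C1qb passed in crush (0.62, adjusted p = 0.0182). PSNL at 1 week then had 1 resident gate sum, from the male, assumed to vary like the other groups, and C3ar1 fell from 1 to 15 weeks (log2 change -1.27, adjusted p = 0.00913), while it did not pass in PSNL against sham (1.37, adjusted p = 0.141) or against crush (1.13, adjusted p = 0.275) at 1 week.

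In the microglia-like gate, C5ar1 was low in crush at 1 week (80.9 and 37.7 CPM) and at 102 to 163 CPM in crush and 127 to 181 CPM in PSNL at 15 weeks. From 1 to 15 weeks of crush, C5ar1 rose by 1.20 (SE 0.33, edgeR adjusted p = 0.0151) and Cfp fell by 1.73 (SE 0.42, adjusted p = 0.00735), so 2 of 7 members passed against 28.7% of 8255 genes (17.5% higher, 11.2% lower). The C1q genes lay between -0.24 and -0.11 with SEs of 0.16 to 0.17. No member was called between PSNL and crush at 15 weeks in this gate (0%, 300 genes at an unadjusted p under 0.05) or in the Spp1-list gate (0%, 267 genes).

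Of 46 further complement genes, 18 had enough counts to be tested. In PSNL against sham, Itgam, the alpha chain of complement receptor 3 and the CD11b of the sort, was higher by 1.29 (SE 0.27, edgeR adjusted p = 0.0178). There 1 of 18 rose and 1 fell, against 5.26% of all genes tested. The median log2 change was 0.36 against 0.10 over all genes. Between PSNL and crush at 1 week 3 of 18 were higher in PSNL and none was called lower (median 0.56 against -0.02), against 12.4% of all genes tested in either direction. These were Cd93, a transmembrane lectin once described as a C1q receptor (1.43, SE 0.22, adjusted p = 0.00209), Itgam (0.97, adjusted p = 0.028) and Cfb, the alternative pathway protease factor B (2.54, SE 0.77, adjusted p = 0.0496). At 15 weeks 0 of 18 passed, against 0% of all genes tested.

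With 56.3% of all genes called in PSNL and 42.5% in crush, the counts from 1 to 15 weeks are a description. Of the 18, 5 rose and 4 fell in PSNL (median 0.02), and 5 rose and 3 fell in crush (median 0.70). In PSNL those with the smallest adjusted p included Itgam (-1.88, SE 0.21, edgeR adjusted p = 1.26e-05), Itgb2, the beta chain of complement receptor 3 (-1.51), and Calr, the chaperone calreticulin that also binds C1q (-1.04). In crush they included the scavenger collectin Colec12 (4.35, SE 0.51, adjusted p = 3.94e-05), Calr (-0.99) and Cd93 (1.03). The change of the PSNL minus crush difference was called for 1 of 18, against 7.86% of all genes (4.4% lower). The called gene was Cd93 (-1.43, edgeR adjusted p = 0.0104), which also had one of the profiles most like C5ar1.

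By Pearson correlation of log2 CPM over the 13 samples, the genes most like the mean of the C1q genes were Snx5 (r = 0.98), Rgs10 (0.97) and Lmo2 (0.96), out of 11476. For C3 they were Hnrnph2 (0.95), Mlkl (0.93) and Erp44 (0.93), and for C3ar1 Slc37a2 (0.93), Spryd7 (0.91) and Lgmn (0.91). For C5ar1 they were Gstt1 (0.92), Sh3bp5 (0.92) and Cd93 (0.90), and for Cfp Glipr2 (0.96), Tuba1a (0.95) and Dok2 (0.94). The samples share libraries and times, so these values describe the profiles only. Among the members, C1qa correlated at 0.99 with C1qc and at 0.97 with C1qb, whereas Cfp ran against C1qb (-0.90).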

How the data were processed

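CD45+/CD11b+ cells of mouse sciatic nerve were read as droplet single-cell RNA with hashtag antibodies. The authors deposited UMI counts per gene and barcode for 4 libraries, made with Cell Ranger (6.0.0 in the headers at 1 week, 7.0.0 at 15 weeks) on GRCm38, with Seurat 5.1.0 also named in the processing notes. Whether introns were counted is not given in the sources used here.

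Barcodes with at least 500 genes and under 10% mitochondrial UMIs were kept. A hashtag was positive above the valley of its log10 counts (kernel bandwidth 0.1), and barcodes with exactly 1 positive hashtag were used (6551 of 9133), which removes doublets between samples. Scrublet (scanpy 1.11.5) called 1 to 4 doublets per library and so did not work, and other doublets may remain. Counts were not corrected for RNA from outside the cells. HTODemux (Seurat 5.3.0) left out 55.6% of barcodes from the 1 week PSNL library as no singlets.

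Counts were summed per hashtag sample, or per sample and gate with at least 20 cells, and tested with edgeR 4.0.16 (R 4.3.3; quasi-likelihood F-test, TMM, filterByExpr, Benjamini-Hochberg over all genes, called under an adjusted p of 0.05), with 13 samples in 1 fit. DESeq2 1.42.0, other hashtag, cell and gene filters, size factors, sex, library and replicate terms and leaving out samples were alternatives. On simulated counts the test found 5% of genes changed 2-fold and 53% of those changed 4-fold for PSNL against sham, and 52% and 86% for PSNL against crush at 15 weeks.

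The 7 members and all gene lists were chosen with earlier results of these data known. The text names the members, up to 4 further complement genes per comparison with the smallest adjusted p, and the 3 genes most correlated with each profile. Places are those of GENCODE M21. Some results for further complement genes and motifs are not reported here.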

Additional observations from a re-analysis of the deposited data

Results flagged for a closer look

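C5ar1, the receptor of C5a, differed in its response between the injuries over time: the PSNL minus crush difference changed by -2.22 on the log2 scale from 1 to 15 weeks (edgeR adjusted p = 0.000669), with C5ar1 falling in PSNL and rising in crush. Time and library cannot be told apart here, and injury and library coincide apart from the sham samples at 1 week. Library as a term was not fitted for this difference.

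Of 28 groups of 4 samples examined for a sample far from the others, 3 had one, where chance gives about 1 in 20. In PSNL at 15 weeks, C1qb was at 3179 CPM in the resident gate of M2, C1qc was at 2303 CPM in the microglia-like gate of F2, and C3 was at 11.8 CPM (14 UMIs) in the microglia-like gate of F2.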

How the results depend on the processing

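Of 2203 values of single members under the alternatives, the alternatives that keep every sample gave 915 with the same direction and call, 26 newly called, 26 no longer called and 8 reversed, and leaving out a sample gave 1133, 14, 63 and 18.

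For PSNL against sham (3 members called) the count was 0 with HTODemux, 5 with looser cell filters, 5 without the gene filter, 5 with DESeq2 and 0 with library as a term. For crush against sham (1) it was 0 after removal of the cells with the highest Scrublet scores, 0 without neutrophil and eosinophil gates and 0 with library as a term, and for PSNL against crush at 1 week (3) it was 0 with library as a term. For the difference between times (1) it was 2 with looser cell filters, 2 without neutrophil and eosinophil gates, 3 without the gene filter, 2 with sex as a term and 3 with DESeq2. Against the resident gate, the microglia-like gate (3) had 7 without the gene filter and the neutrophil gate (5) had 3 with HTODemux and 1 with the hashtag ratio of 3. Within the Spp1-list gate, the counts without the gene filter were 3 for PSNL against crush at 1 week (1), 1 at 15 weeks (0) and 2 for crush between times (0), where DESeq2 gave 1. Within the microglia-like gate, crush between times (2) had 1 after the Scrublet removal.

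Leaving out 1 sample gave 0 to 5 members for PSNL against sham, 0 to 1 for crush against sham, 1 to 4 for PSNL against crush at 1 week, 0 at 15 weeks, 5 to 6 and 1 to 7 between times in PSNL and crush, and 1 to 2 for the difference between times. Against the resident gate it gave 2 to 4 (Spp1-list), 3 to 4 (microglia-like), 6 to 7 (dendritic), 4 to 6 (monocyte), 0 to 5 (neutrophil) and 3 (eosinophil), within the Spp1-list gate 0 to 2 for PSNL against crush at 1 week, 1 to 6 and 0 to 3 between times in PSNL and crush, and within the microglia-like gate 1 to 2 for crush between times.

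Reversed values belonged to uncalled members except C1qb in the neutrophil gate. Crush against sham gave C1qa 0.038 and C1qc 0.19 with library as a term, and C1qc 0.020, C3 -0.56 and C3ar1 -0.052 with HTODemux. Cfp in PSNL against crush at 15 weeks was 0.019 with HTODemux and 0.14 with sex as a term. Leaving out 1 sample, crush against sham ranged from -0.69 to 0.19 for C1qa, from -0.096 to 0.57 for C1qb and from -0.50 to 0.23 for C1qc. PSNL against crush at 15 weeks ranged from -0.27 to 0.091 for C1qa, -0.45 to 0.046 for C1qb, -0.32 to 0.067 for C1qc, -0.36 to 1.16 for C3, -0.45 to 0.17 for C3ar1 and -0.41 to 0.77 for Cfp. The difference between times ranged from -0.76 to 0.43 for Cfp, C1qb in the neutrophil against the resident gate from -2.82 to 0.24 (the latter without the crush male at 1 week), and C5ar1 within the Spp1-list gate at 15 weeks from -0.046 to 0.47.

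The samples at 15 weeks share replicate numbers, and the deviations of same-numbered samples correlated at 0.08, 0.16 and 0.11. Samples with different numbers were not set beside these, so the values cannot tell whether the numbers pair the samples. With the replicate block 0 members and 3 genes were called at 15 weeks, and Cfp was at 0.29.

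Over all genes, PSNL against sham (604 genes) gave 101 with HTODemux, 983 with looser cell filters and 133 with library as a term. Crush against sham (20) gave 0 to 153, and PSNL against crush at 1 week (1421) gave 10 with library as a term. PSNL against crush at 15 weeks (0) gave 8 without the gene filter, 2 with sex as a term and 8 with DESeq2. The monocyte gate (1474) gave 877 and the neutrophil gate (3233) gave 1184 with HTODemux, the latter 1844 with the hashtag ratio, and the eosinophil gate (416) 1176 with looser cell filters. Within the Spp1-list gate PSNL against crush at 1 week (149) gave 89 with HTODemux, 456 without the gene filter and 231 with DESeq2. Without the gene filter, crush against sham within the resident gate (2) gave 80, and PSNL against crush at 15 weeks (0 each) gave 31 within the resident, 48 within the Spp1-list and 82 within the microglia-like gate. With DESeq2 the resident gate gave 14 and the Spp1-list gate 3 in these comparisons, and for crush against sham within the resident gate the other alternatives that keep every sample gave 0 to 2 and leaving out 1 sample 0 to 19. The cause of these changes was not tested. The sham samples held only 64 and 105 cells.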
